A study of Mus musculus with 13 samples.

Results

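The contractile genes of smooth muscle and of myofibroblasts were followed through spontaneous immortalization of mouse embryonic fibroblasts (MEFs). The 10 genes, chosen by name, are Acta2, Actg2, Tagln, Cnn1, Myl9, Tpm1, Tpm2, Lmod1, Myh11 and Myocd, and all 10 were found once among the 55487 gene IDs of the deposited raw count tables. Poly-A RNA was sequenced from 13 libraries, 3 of wild-type (WT) primary MEFs (pMEFs), 3 of WT immortalized MEFs (iMEFs), 3 of Prkd3-/- pMEFs and 4 of Prkd3-/- iMEFs. The WT cells carry clone numbers 3, 4 and 5, which the methods describe as separate embryos, and the Prkd3-/- cells carry clone numbers 13, 14 and 15. Lines 13 and 13a were both taken as lines of clone 13, which is read from their names alone. All cells were grown in high-glucose DMEM with 10% fetal calf serum, and the pMEF libraries were taken before immortalization. To immortalize the cells, cultures were passaged until senescence, and the serum was then raised to 20%. The colonies that grew out were expanded and grown in 10% serum again, so each iMEF library stands for 1 line grown from such colonies. The labels give Prkd3-/- without the allele, and they give no age of the embryos.

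Contractile cells shorten when smooth muscle myosin, built of heavy chains such as that of Myh11 and light chains such as that of Myl9, pulls on filaments of smooth muscle actin. The filaments carry tropomyosin, calponin and transgelin along their length, and leiomodin helps to build them. In fibroblasts part of this set, above all Acta2, is switched on when a cell becomes a myofibroblast under tension, serum or TGF-beta. The transcription factor SRF drives most of these genes through a short AT-rich element named the CArG box, together with the partner proteins myocardin (Myocd) or the MRTFs, and TEAD factors bind another element named MCAT.

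The gene Prkd3 itself was counted at 69.2 to 73.7 CPM (counts scaled to a common library size) in WT pMEFs, 73.6 to 93.7 CPM in WT iMEFs, 33.6 to 43.2 CPM in Prkd3-/- pMEFs and 43.8 to 61.0 CPM in Prkd3-/- iMEFs. The reads on Prkd3 were thus fewer in every Prkd3-/- library than in any WT library, without being absent. Counts summed over a gene cannot show which of its exons was lost. Libraries held 35273408 to 100441756 counts, so that 3 counts, the floor of detection for a count of 0, correspond to 0.0299 to 0.085 CPM. Over 100 counts of Xist together with over 100 counts of Y-linked genes were found in 5 of the 13 libraries, among them all 3 WT pMEF libraries, so the counts do not show these to be cells of a single embryo each. The WT pMEF libraries were also much closer to each other (SD of the log2 ratio over genes 0.09 to 0.12 between pairs) than the WT iMEF lines (0.42 to 0.53), the Prkd3-/- pMEFs (0.22 to 0.47) or the Prkd3-/- iMEF lines (0.55 to 1.08). Prkd3-/- pMEF 14 stood apart from pMEFs 13 and 15 (0.47 and 0.43, against 0.22 between those), and lines 13 and 14 were the farthest apart of the Prkd3-/- lines.

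Per length of transcript, Acta2 was the highest of the 10 genes in each group and Myocd the lowest. In WT pMEFs, the mean levels in CPM per kilobase of exon (RPKM, n = 3) were 1263 for Acta2, 598.9 for Tagln, 358.1 for Myl9, 225.0 for Tpm1, 136.1 for Tpm2, 89.7 for Actg2, 75.5 for Cnn1, 19.2 for Lmod1, 9.64 for Myh11 and 0.254 for Myocd. The MEFs therefore held the actin, transgelin and light chain of a contractile cell at high levels, but the smooth muscle heavy chain and myocardin at low ones. Of the 9 pairs of neighbours in each group's own order of means, 0 had overlapping ranges in WT pMEFs, 7 overlapped in WT iMEFs, 2 in Prkd3-/- pMEFs and 7 in Prkd3-/- iMEFs. Acta2 stood at 66.8% to 156% of the level of Actb, the cytoplasmic actin, per length over the 13 libraries.

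**Figure D1:**
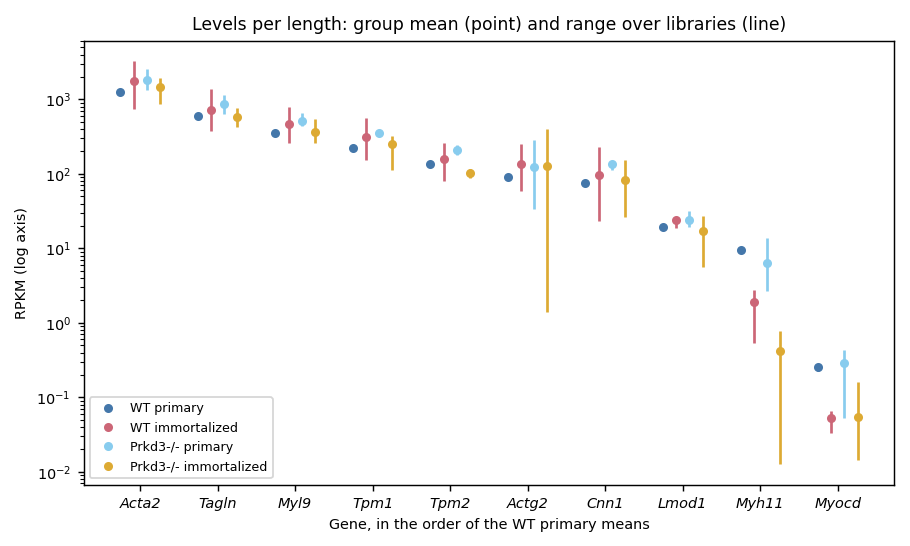
RPKM (log axis) of the 10 contractile genes, in the order of their WT pMEF means, with 1 point for the mean of each group and a line from its lowest to its highest library (n = 3, 3, 3 and 4). The order from Acta2 at 1263 RPKM to Myocd at 0.254 RPKM is free of overlap in WT pMEFs, where the lines are shorter than the points. In each group's own order, ranges overlap for 2 of 9 neighbouring pairs in Prkd3-/- pMEFs and for 7 of 9 in the iMEFs of each genotype.

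Of the 10 genes, 6 had an entry in the set of RefSeq promoter sequences at hand (GRCm38.p6), namely Acta2, Cnn1, Myl9, Tpm1, Tpm2 and Lmod1. That set held no entry for Actg2, Tagln, Myh11 or Myocd, so their promoters were not searched. In the 250 bases before the start, Myl9 held a CArG box, CC and GG around 6 A or T bases, and Acta2 and Myl9 held CArG-like elements, in which 5 of the 6 inner bases are A or T. MCAT (CATTCC, read on both strands) was found in Acta2, Tpm1 and Lmod1, and none of these matches overlapped a CArG element. Among 32851 RefSeq promoters, 1.47% held a CArG box, 8.59% a CArG box or CArG-like element and 12.6% an MCAT element on either strand in the same window. Acta2 and Myl9 are shown because, of the 6 promoters, they alone held a CArG box or CArG-like element. Their levels over the 13 libraries had a Pearson r of 0.90 (log2 CPM), the highest of the pairs among the 10 genes. Acta2 and Tpm1, whose window held neither a CArG box nor a CArG-like element, had 0.89. A link between these elements and the levels was not tested. The coefficients only describe libraries that share clones and groups. The 3 stretches below read 5′ to 3′ along the gene's strand, with the CArG and CArG-like elements in capitals. They lie at chr19:34255438-34255467 (minus strand) and chr19:34255388-34255417 (minus strand) for Acta2, both within bases that Ensembl annotates as exon, and at chr2:156775214-156775419 (plus strand) for Myl9.
Acta2, 94 to 65 bases before the start: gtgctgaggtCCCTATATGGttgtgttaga
Acta2, 44 to 15 bases before the start: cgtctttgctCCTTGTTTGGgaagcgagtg
Myl9, 250 to 45 bases before the start: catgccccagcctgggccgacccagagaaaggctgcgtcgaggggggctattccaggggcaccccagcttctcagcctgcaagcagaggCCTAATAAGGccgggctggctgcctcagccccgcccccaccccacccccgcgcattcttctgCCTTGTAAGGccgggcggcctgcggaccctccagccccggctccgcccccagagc

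To ask whether immortalization moved the contractile genes, iMEFs were compared with pMEFs within each genotype. In WT cells, Myh11 was 5.01-fold and Myocd 4.78-fold lower in iMEFs, with every line below every pMEF library, while the other 8 genes had Log2FC values between 0.24 and 0.60 and overlapping groups. In Prkd3-/- cells, 9 of the 10 genes had a negative Log2FC, and Myh11, Tpm2 and Tpm1 lay lower in all 4 lines than in all 3 pMEF libraries. A gene was called where edgeR's quasi-likelihood test gave an adjusted p below 0.01 (Benjamini-Hochberg, all tested genes) and the |Log2FC| reached 1. By this rule 0 of 10 genes were called in WT cells, where 1.82% of the 19836 tested genes were called (0.0605% higher and 1.76% lower), and 0 of 10 in Prkd3-/- cells, where 0% of 20298 were called. With an adjusted p below 0.05 alone, 1 of 10 (Myocd) was reached in WT cells, against 5.27% of tested genes. All lines lay below all pMEFs for 2 of 10 genes in WT cells, against 17.4% of tested genes, and for 3 of 10 in Prkd3-/- cells, against 5.26%. They lay above for 0 of 10 in either genotype, against 13.9% and 4.19%, so that groups free of overlap made up 31.3% of tested genes in WT and 9.45% in Prkd3-/- cells. At an unadjusted p under 0.05 there were 2 of the 10 genes in WT cells (Myh11 and Myocd, against 19.7% of all genes) and 2 in Prkd3-/- cells (Myh11 and Tpm2, against 6.56% of all genes). DESeq2 called Myh11 (adjusted p = 0.000691) and Myocd (adjusted p = 2.2e-09) in WT cells and Tpm2 (adjusted p = 0.00447) in Prkd3-/- cells. Over all genes DESeq2 called 1361 in WT and 190 in Prkd3-/- cells, more than edgeR in both. Limma with a weight per group called 0 of the 10 in either genotype, and 184 of all genes in WT cells. Over the 10 genes the median Log2FC was 0.34 in WT cells, against 0.04 over all genes, and -0.55 in Prkd3-/- cells, against 0.07 over all genes. In these bulk samples, fewer cells of a type and less RNA per cell cannot be told apart.

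**Figure D2:**
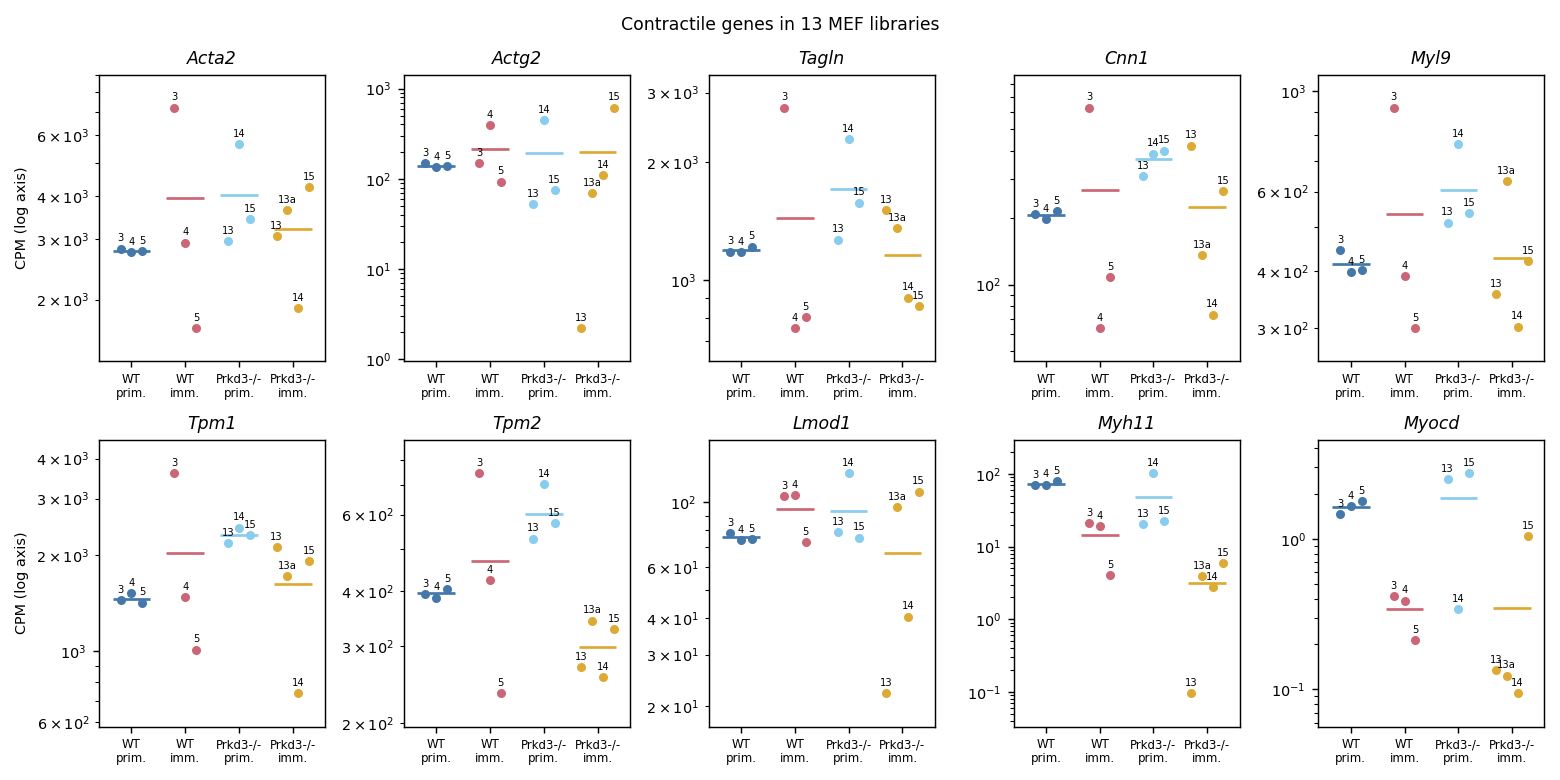
CPM (log axis, a separate scale for each gene) of the 10 contractile genes in 13 libraries, with 1 point per library marked by its clone or line number and a bar at the group mean (n = 3, 3, 3 and 4; prim. and imm. stand for primary and immortalized). Acta2 sits between 2744 and 2810 CPM in WT pMEFs and between 1652 and 7217 CPM in the WT lines, while in the panel of Myh11 the lines of each genotype sit below the pMEFs of that genotype.

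Acta2, the smooth muscle alpha-actin that marks myofibroblasts (ENSMUSG00000035783, chromosome 19 of GRCm38 from 34241090 to 34255590), had 2810, 2744 and 2768 CPM in WT pMEFs 3, 4 and 5. In the WT lines of the same numbers it had 7217, 2925 and 1652 CPM. The lines thus lay above, near and below a narrow group of pMEFs, and the Log2FC of 0.50 (standard error 0.53, n = 3 per group) was smaller than its error. In Prkd3-/- pMEFs 13, 14 and 15, Acta2 had 2963, 5660 and 3428 CPM, and in lines 13, 13a, 14 and 15 it had 3050, 3645, 1887 and 4231 CPM. Line 14 was the lowest of these libraries and pMEF 14 the highest, the groups overlapped, and the Log2FC was -0.34 (standard error 0.35). The adjusted p-values of edgeR's quasi-likelihood test were 0.660 and 0.880.

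Actg2, the gamma-actin of visceral smooth muscle (chromosome 6 from 83512905 to 83536265), varied more than any other of the 10 genes over the Prkd3-/- lines. WT pMEFs 3, 4 and 5 had 147.8, 133.6 and 137.5 CPM, and the WT lines had 149.5, 391.0 and 93.1 CPM. Line 4 was the highest, a different line from that of Acta2. Prkd3-/- pMEFs 13, 14 and 15 had 52.6, 448.4 and 75.5 CPM, and lines 13, 13a, 14 and 15 had 2.21, 69.0, 109.0 and 614.6 CPM. Line 15 thus held 278-fold the level of line 13, and Actg2 stood at 20.5% of Acta2 per length in line 15 and 0.102% in line 13. The Log2FC values were 0.60 (standard error 0.52) in WT cells and 0.04 (standard error 1.46) in Prkd3-/- cells, the latter with a 95% interval from -2.82 to 2.89 (normal approximation), so that a large change in either direction remains within the error.

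Lmod1, which encodes the leiomodin of smooth muscle (chromosome 1 from 135324807 to 135368065), was the steadiest of the 10 genes over the WT lines, with a coefficient of variation of 19.7%. It had 78.5, 74.2 and 74.9 CPM in WT pMEFs 3, 4 and 5 and 104.6, 105.7 and 72.9 CPM in the lines. Lines 3 and 4 lay above the pMEFs and line 5 below them (Log2FC 0.31, standard error 0.16, edgeR adjusted p = 0.343). In Prkd3-/- pMEFs it had 78.9, 126.0 and 75.6 CPM, and lines 13, 13a, 14 and 15 had 22.1, 95.9, 40.5 and 108.7 CPM. The lines split into a low pair, 13 and 14, and a pair within the range of the pMEFs (Log2FC -0.49, standard error 0.54).

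Tagln, the actin-bundling transgelin also named SM22-alpha, had 1181, 1175 and 1216 CPM in WT pMEFs 3, 4 and 5 and 2748, 753.1 and 804.9 CPM in the lines. Line 3 was high and lines 4 and 5 lay below all pMEFs. In Prkd3-/- pMEFs 13, 14 and 15 it had 1267, 2280 and 1574 CPM, and in lines 13, 13a, 14 and 15 it had 1509, 1353, 900.7 and 859.1 CPM. Each of these lines was below the mean of the pMEFs, with overlap between the groups. The Log2FC values were 0.27 (standard error 0.54) in WT cells and -0.58 (standard error 0.30) in Prkd3-/- cells. Because 67.9% of its exon bases are shared with other annotated genes, mainly Gm48529 on the opposite strand, and the counting ignored strand and gave shared read pairs to each gene, reads of Tagln and of that partner cannot be told apart. The other 9 genes shared no exon bases.

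Cnn1, basic calponin, which damps the myosin ATPase, was also highest in line 3 among the WT lines. The WT pMEFs had 207.9, 197.6 and 214.2 CPM, and lines 3, 4 and 5 had 625.6, 63.6 and 107.7 CPM. The highest WT line held 9.83-fold the level of the lowest, the widest spread of the 10 genes over the WT lines (Log2FC 0.36, standard error 0.84). Prkd3-/- pMEFs 13, 14 and 15 had 307.6, 388.3 and 400.4 CPM, and lines 13, 13a, 14 and 15 had 422.0, 136.2, 73.3 and 262.8 CPM. Line 13 lay above the pMEFs and line 13a, of the same clone by its name, below them (Log2FC -0.73, standard error 0.53).

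The tropomyosins stabilize actin filaments and set the access of myosin to them. Tpm1, the alpha chain, had 1443, 1516 and 1419 CPM in WT pMEFs 3, 4 and 5 and 3608, 1478 and 1012 CPM in the lines. It had 2179, 2436 and 2306 CPM in Prkd3-/- pMEFs 13, 14 and 15 and 2113, 1720, 738.0 and 1909 CPM in lines 13, 13a, 14 and 15. In Prkd3-/- cells the groups did not overlap, although line 13 was close to pMEF 13 (Log2FC -0.53, standard error 0.34, edgeR adjusted p = 0.843). Tpm2, the beta chain, had 394.7, 387.1 and 405.5 CPM in WT pMEFs and 747.5, 425.0 and 233.5 CPM in WT lines 3, 4 and 5. Prkd3-/- pMEFs had 528.6, 704.1 and 572.7 CPM and lines 13, 13a, 14 and 15 had 268.0, 343.0, 254.4 and 327.5 CPM. Here all 4 lines lay clearly below all pMEFs, a 2.03-fold difference (Log2FC -1.02, standard error 0.20, edgeR adjusted p = 0.296). Without Prkd3-/- pMEF 14 the Log2FC of Tpm2 was -0.89 (edgeR adjusted p = 0.605).

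Myl9, the regulatory light chain whose phosphorylation starts contraction, had 446.6, 399.0 and 402.7 CPM in WT pMEFs 3, 4 and 5 and 918.1, 390.4 and 300.1 CPM in the lines. In Prkd3-/- pMEFs it had 512.5, 762.2 and 537.7 CPM, and lines 13, 13a, 14 and 15 had 356.3, 632.9, 302.4 and 420.8 CPM. The groups overlapped through WT line 3, which lay above all WT pMEFs, and through Prkd3-/- line 13a, which lay within the range of the pMEFs, while the other lines lay below the pMEFs of their genotype. The Log2FC values were 0.37 (standard error 0.43) in WT cells and -0.51 (standard error 0.30) in Prkd3-/- cells.

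Myh11, the smooth muscle myosin heavy chain (ENSMUSG00000018830, chromosome 16 from 14194535 to 14291372), had groups that did not overlap in either genotype. WT pMEFs 3, 4 and 5 had 70.1, 70.9 and 78.8 CPM and the lines had 20.9, 19.0 and 4.07 CPM. Every WT line lay below every pMEF library, line 5 far below the other lines (Log2FC -2.32, standard error 0.59, edgeR adjusted p = 0.0996). Prkd3-/- pMEFs 13, 14 and 15 had 20.2, 103.0 and 22.3 CPM, and lines 13, 13a, 14 and 15 had 0.0954, 3.96, 2.73 and 5.98 CPM. In line 13 only 5 counts of Myh11 remained of 52659057, and all lines lay below all pMEFs (Log2FC -3.93, standard error 1.14, edgeR adjusted p = 0.609). The values of Prkd3-/- pMEFs 13 and 15 were thus of the size seen in WT lines 3 and 4. Without pMEF 14 the Log2FC in Prkd3-/- cells was -2.74 (edgeR adjusted p = 0.998), and without WT line 5 the Log2FC in WT cells was -1.88 and passed the thresholds (edgeR adjusted p = 0.00104).

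Myocd, the coactivator of SRF that defines the smooth muscle lineage (ENSMUSG00000020542, chromosome 11 from 65176561 to 65269989), was near the floor of detection in most lines. It had 1.46, 1.66 and 1.79 CPM in WT pMEFs 3, 4 and 5, from 95 to 152 counts, and 0.419, 0.389 and 0.213 CPM in the lines, from 14 to 26 counts. All WT lines lay below all pMEFs (Log2FC -2.26, standard error 0.32), and the adjusted p-value of 0.0166 in edgeR's quasi-likelihood test was under 0.05 but not under 0.01. Without WT line 5 the Log2FC was -2.01 with an edgeR adjusted p of 0.00785, and with the clone number as a replicate block the edgeR adjusted p was 0.121. Prkd3-/- pMEFs 13, 14 and 15 had 2.51, 0.342 and 2.75 CPM, and lines 13, 13a, 14 and 15 had 0.134, 0.123, 0.0938 and 1.04 CPM. The groups overlapped through pMEF 14, which was low, and line 15, which was high (Log2FC -2.42, standard error 1.07, edgeR adjusted p = 0.769). The library with the most Myh11, pMEF 14, was thus the pMEF library with the least Myocd.

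**Figure D3:**
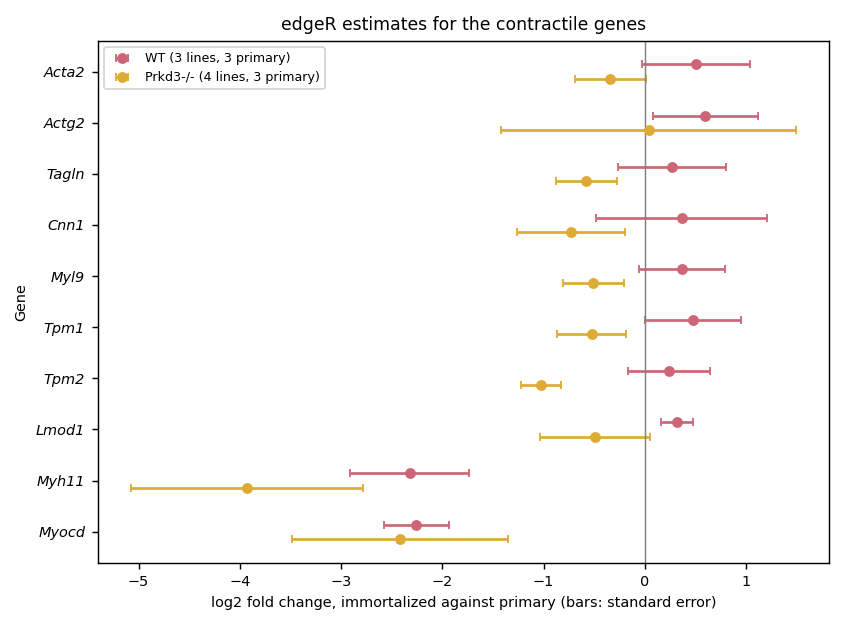
Log2 fold change of iMEFs against pMEFs for the 10 contractile genes in WT cells (3 lines, 3 pMEF libraries) and Prkd3-/- cells (4 lines, 3 pMEF libraries), from edgeR, with bars of 1 standard error. Myh11 and Myocd lie below -2 in both genotypes, while for the other 8 genes the WT points lie between 0.24 and 0.60 and the Prkd3-/- points between -1.02 and 0.04.

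The WT lines differed from each other far more than the WT pMEFs did. In WT cells, the coefficient of variation was 1.19% to 10.2% over the pMEFs and 19.7% to 118% over the lines, larger over the lines for 10 of 10 genes, as it was for 88.9% of all tested genes. Line 3 held the highest level of 8 of the 10 genes among the WT lines (it was highest for 36.9% of tested genes) and line 5 the lowest level of 8 (lowest for 33.8% of tested genes). The 10 genes together took up 0.678% to 0.688% of the counts in WT pMEFs and 1.45%, 0.589% and 0.415% in lines 3, 4 and 5. In Prkd3-/- cells the variation was larger over the lines for 6 of 10 genes, against 82.8% of tested genes, and their share was 0.806%, 1.39% and 0.909% in pMEFs 13, 14 and 15 and 0.770%, 0.826%, 0.457% and 0.891% in lines 13, 13a, 14 and 15.

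Each line was also set against the pMEF library of its own clone number. The median log2 ratio of the 10 genes was 0.98 in WT line 3, with 8 genes higher, -0.04 in line 4, with 4 higher, and -0.67 in line 5, with 0 higher. In the Prkd3-/- lines it was -0.75 in line 13, -0.12 in line 13a, -1.68 in line 14, with 0 genes higher, and -0.48 in line 15. Over all genes these medians ran from -0.01 to 0.03. Myh11 and Myocd were lower in 7 of 7 lines, with log2 ratios from -7.72 to -1.75 and from -4.35 to -1.40, and they were the only 2 of the 10 genes lower in WT line 3. Lines 13 and 13a, of the same clone by their names, differed in the sign of their ratio for Actg2 (-4.57 and 0.39), Cnn1 (0.46 and -1.18), Myl9 (-0.52 and 0.30) and Lmod1 (-1.84 and 0.28).

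**Figure D4:**
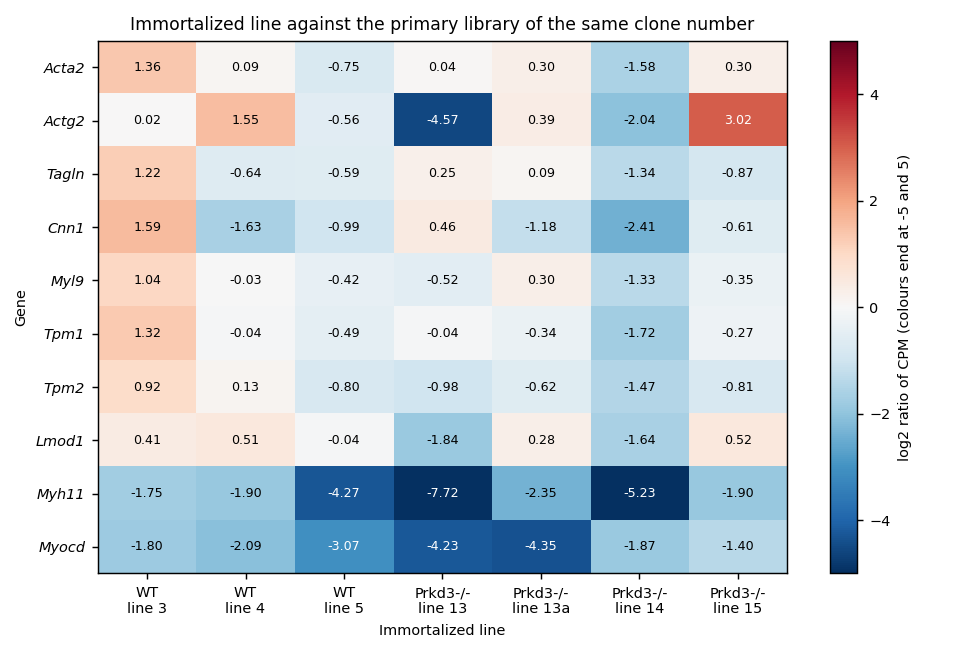
Log2 ratio of CPM in each of the 7 iMEF lines to the pMEF library of the same clone number, for the 10 contractile genes (lines 13 and 13a share a pMEF library; colours end at -5 and 5, and the number in each cell is the value). Myh11 and Myocd are negative in all 7 columns, WT line 3 is positive for the other 8 genes, and WT line 5 and Prkd3-/- line 14 are negative for all 10 genes.

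Removing WT line 3 changed the direction for 6 of the 10 genes. Without it, the Log2FC in WT cells was -0.27 for Acta2, -0.61 for Tagln (edgeR adjusted p = 0.0155), -1.27 for Cnn1 (edgeR adjusted p = 0.0369), -0.27 for Myl9, -0.23 for Tpm1 and -0.26 for Tpm2. The positive WT values of these genes therefore rested on line 3.

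To ask whether immortalization acted differently in the 2 genotypes, the interaction of state and genotype was tested in a fit of the 13 libraries. Genotype goes with the count table, and so levels were not tested between genotypes. The difference, the Log2FC in Prkd3-/- cells minus that in WT cells, was negative for 10 of 10 genes, with a median of -0.85 against 0.06 over all genes, and 44.6% of all 21197 genes were negative. It was -1.60 for Myh11 (standard error 1.35), -1.26 for Tpm2 (standard error 0.44) and -1.07 for Cnn1 (standard error 1.04), and without Prkd3-/- pMEF 14 that of Myh11 was -0.41. By edgeR's quasi-likelihood test 0 of the 10 had an adjusted p below 0.05, as had 0% of all genes, and the adjusted p was 1.00 for each. At an unadjusted p under 0.05 there was 1 of the 10, Tpm2, against 3.97% of all genes, and DESeq2 called 0 of the 10 and 37 of all genes. The 95% intervals (normal approximation) ran from -2.10 to 0.44 for Acta2, from -2.12 to -0.39 for Tpm2 and from -2.62 to 2.33 for Myocd, so that differences of more than 2-fold remain within the error for each. Without WT line 3 the difference was 0.53 for Cnn1, 0.02 for Tagln, -0.08 for Acta2, -0.25 for Myl9, -0.31 for Tpm1 and -0.77 for Tpm2.

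The genes of the wider smooth muscle cytoskeleton showed 1 call in WT cells and 0 in Prkd3-/- cells, against 1.82% and 0% of all tested genes. Of 34 listed genes 33 were tested, and Hspb7, a small heat shock protein of muscle, fell from 10.1 to 12.7 CPM in WT pMEFs to 0.757 to 0.796 CPM in WT lines (Log2FC -3.81, standard error 0.16, edgeR adjusted p = 0.000356). DESeq2 also called Hspb7, limma did not, and with the clone number as a replicate block, under which 0 of all genes passed in WT cells, its edgeR adjusted p was 0.0223. It was also below all pMEFs in all 4 Prkd3-/- lines (Log2FC -2.73, edgeR adjusted p = 0.455). Des, the muscle intermediate filament protein desmin, had 22.4 to 25.8 CPM in WT pMEFs and 0.728 to 7.09 CPM in WT lines, and 4.34 to 27.1 and 0.115 to 0.922 CPM in Prkd3-/- cells. Its groups did not overlap in either genotype, with edgeR adjusted p-values of 0.134 and 0.310, and DESeq2 called it lower in both. Synm, which binds desmin filaments, had 3.82 to 50.2 CPM in Prkd3-/- pMEFs and 3.08 to 9.12 CPM in the lines, groups that overlapped (Log2FC -2.55, standard error 0.79, edgeR adjusted p = 0.633), and Pdlim3, a PDZ-LIM protein of actin bundles, ranged from 0.0806 to 3.32 CPM over the WT lines against 0.107 to 0.291 CPM in WT pMEFs (edgeR adjusted p = 0.340). At an unadjusted p under 0.05 there were 5 of the 33 genes in WT cells, 3 higher and 2 lower, against 19.7% of all tested genes, and 5 in Prkd3-/- cells, all lower, against 6.56%. The median Log2FC of the list was 0.33 in WT cells and -0.27 in Prkd3-/- cells. The general cytoskeleton, with 13 non-muscle counterparts such as Myh9, Myh10, Cnn2 and Myl12b, had 0 calls in either genotype by edgeR, DESeq2 or limma, 1 and 0 genes at an unadjusted p under 0.05 in WT and Prkd3-/- cells, medians of 0.21 and 0.03 and a Log2FC range of -0.48 to 0.72 over both.

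Among 13 SRF, MRTF, YAP and TEAD regulators, 1 was called in WT cells, against 1.82% of all tested genes. Mef2c, a MADS-box factor of muscle and other lineages, fell from 34.1 to 37.1 CPM in WT pMEFs to 4.93 to 8.58 CPM in WT lines (Log2FC -2.31, standard error 0.22, edgeR adjusted p = 0.00502). DESeq2 and limma also called Mef2c in WT cells, and with the clone number as a replicate block its edgeR adjusted p was 0.0422. In Prkd3-/- cells its groups overlapped (Log2FC -0.04, standard error 0.50). Srf itself had Log2FC values of 0.06 and -0.05, Mrtfa 0.02 and -0.02, and Mrtfb 0.16 and 0.06 in WT and Prkd3-/- cells. Gata6 had 3.09 to 10.1 CPM in Prkd3-/- pMEFs and 7.76 to 36.5 CPM in the lines and did not pass (Log2FC 2.10, standard error 0.65, edgeR adjusted p = 0.631). Tead4 had Log2FC values of 0.51 and 0.22, and Tead1 of 0.46 and -0.28, in WT and Prkd3-/- cells. In Prkd3-/- cells 0 regulators were called by edgeR, DESeq2 or limma. At an unadjusted p under 0.05 there were 2 of 13 in WT cells, both lower, against 19.7% of all tested genes. In Prkd3-/- cells there was 1, higher, against 6.56% of all tested genes. Of 11 tested repressors of the contractile programme, 0 passed both thresholds in edgeR, with 3 at an unadjusted p under 0.05 in WT cells, against 19.7% of all tested genes, and 0 in Prkd3-/- cells, and DESeq2 called Hey1 and Msx1 lower in WT cells. Twist1, a mesenchymal basic helix-loop-helix factor, was 1.92-fold lower in WT lines with an edgeR adjusted p of 0.00656 and missed the fold limit, and Msx1, a homeobox repressor, had a Log2FC of -5.16 (standard error 0.77, edgeR adjusted p = 0.0198). Hey1, a Notch target, was lower in WT lines without passing (Log2FC -1.76, edgeR adjusted p = 0.0775), and Klf5 was higher in Prkd3-/- lines without passing (Log2FC 1.26, edgeR adjusted p = 0.804).

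The target genes of SRF and YAP outside the contractile apparatus, 9 in number, had 0 calls by edgeR, DESeq2 or limma. By edgeR 1.82% of all tested genes were called in WT and 0% in Prkd3-/- cells, so 0 calls among 9 genes say little. At an unadjusted p under 0.05 there were 0 of the 9 in either genotype, against 19.7% and 6.56% of all tested genes. The median Log2FC of the 9 was 0.41 in WT and -0.29 in Prkd3-/- cells. Ankrd1, a target of YAP, ranged from 1.98 to 87.1 CPM over the WT lines against 17.9 to 18.3 CPM in WT pMEFs, and Ccn2, which encodes the matricellular connective tissue growth factor, from 472.9 to 2706 CPM against 581.4 to 676.9 CPM. Junb had Log2FC values of 0.41 and -0.68 (edgeR adjusted p = 0.666 and 0.769), and Amotl2 of 0.65 and 0.09, in WT and Prkd3-/- cells. Of the 14 genes of TGF-beta input, 0 were called by edgeR, DESeq2 or limma. At an unadjusted p under 0.05 there were 2 in WT and 1 in Prkd3-/- cells, against 19.7% and 6.56% of all tested genes. All lines lay below all pMEFs for 3 of the 14 in WT and 1 in Prkd3-/- cells, against 17.4% and 5.26% of all tested genes. Tgfb3, a ligand, was among these in both genotypes (Log2FC -0.73 and -1.14, edgeR adjusted p = 0.270 and 0.310). Eng, a coreceptor, had Log2FC values of -0.35 and 1.28 in WT and Prkd3-/- cells, and Smad7, an inhibitor, of 0.52 and -0.09. The 16 genes of myofibroblast matrix also had 0 calls in edgeR's test, and at an unadjusted p under 0.05 there were 1 higher and 1 lower in WT cells and 2 lower in Prkd3-/- cells, against 19.7% and 6.56% of all tested genes. Their Log2FC had a median of 0.31 in WT cells, with 12 of 16 genes positive, and -0.44 in Prkd3-/- cells, with 12 of 16 negative. Lrrc15, a surface marker of TGF-beta-activated fibroblasts, was called lower in both genotypes by DESeq2 but not by edgeR, from 67.9 to 71.9 CPM in WT pMEFs to 3.03 to 16.3 CPM in WT lines and from 25.8 to 55.3 CPM to 1.16 to 8.15 CPM in Prkd3-/- cells (edgeR adjusted p = 0.0672 and 0.485). Fap, the fibroblast activation protein, had a WT Log2FC of -2.04 with groups that did not overlap (edgeR adjusted p = 0.267), Tnc, tenascin C, a Prkd3-/- Log2FC of -1.21 (edgeR adjusted p = 0.433), and Postn, periostin, ranged from 16.98 to 6211 CPM over the WT lines.

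Markers of other cell types were read from the same libraries, as a check on the labelled cell type. The fibroblast markers were high throughout as a sum, with 33170 to 33600 CPM in WT pMEFs, 28100 to 60550 CPM in WT lines and 18210 to 31160 CPM in Prkd3-/- libraries. Single markers varied more. In WT cells 5 of the 10 had a negative and 5 a positive Log2FC, and 0 were called. Lum was 5.24-fold lower, with all WT lines below all WT pMEFs (edgeR adjusted p = 0.505). The Log2FC of Dcn had standard errors of 1.56 in WT and 1.93 in Prkd3-/- cells. The 8 macrophage markers summed to 569.0 to 586.4 CPM in WT pMEFs and 29.2 to 87.9 CPM in WT lines, and 6 of 8 were called lower in edgeR's test, against 1.76% of all tested genes. Of the 8 endothelial markers 5 were tested and Tek was called lower, and their sum went from 15.6 to 19.9 CPM to 2.01 to 3.93 CPM. DESeq2 called 7 and limma 6 of the 8 macrophage markers lower in WT cells, among 1361 and 184 calls over all genes. DESeq2 also called 3 endothelial markers lower, Tek among them, and limma called 0. In Prkd3-/- cells both tools called 0 of the macrophage and endothelial markers. With the clone number as a replicate block, under which 0 of all genes passed in WT cells, the edgeR calls were lost. The edgeR adjusted p was then 0.0230 for Tek and 0.0184 to 0.0328 for the 6 macrophage markers. In Prkd3-/- pMEFs 13, 14 and 15 the macrophage markers summed to 80.1, 810.6 and 183.9 CPM, so pMEF 14, which had the most Myh11, Actg2 and Acta2 of the pMEFs, also had the most macrophage transcript, and lines 13, 13a, 14 and 15 had 17.8, 143.1, 9.72 and 14.9 CPM. The 9 pericyte markers summed to 857.6 to 867.8 CPM in WT pMEFs and 769.4 to 1478 CPM in WT lines, and to 558.2 to 593.4 CPM in Prkd3-/- pMEFs and 569.6 to 1014 CPM in Prkd3-/- lines. By edgeR, DESeq2 or limma 0 of the pericyte markers were called in either genotype. At an unadjusted p under 0.05 there were 0 of the 7 tested in WT cells, against 19.7% of all tested genes. In Prkd3-/- cells there was 1 of 7, Pdgfrb, which was higher (Log2FC 0.97, edgeR adjusted p = 0.669), against 6.56% of all tested genes. The 14 skeletal and cardiac muscle markers summed to 33.5 to 39.1 CPM in WT pMEFs, with Acta1 at a mean of 30.9 CPM and Myod1, Myog and Pax7 at means of at most 0.0716 CPM in each group, and in lines 3, 4 and 5 they summed to 35.5, 10.1 and 6.62 CPM. The 6 epithelial markers stayed at or below 4.33 CPM. The part of these other cells in the lower levels of Myh11 and Myocd was not tested.

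Over the 13 libraries, the genes outside the set whose log2 CPM was most like that of Acta2 among 21197 genes were Kctd5 (Pearson r = 0.94), Pdcl3 (0.90), Itgb1 (0.89), Ccn2 (0.89) and Fermt2 (0.88). For the mean log2 CPM of the 10 genes they were Snx30 (0.93), Bach2os (0.90), Sh3bgr (0.89), Tspan33 (0.89) and Pomc (0.89). Pomc was at most 0.43 CPM, with 0 CPM in Prkd3-/- line 13. Sh3bgr fell to 0.057 CPM in that line and Tspan33 to 0.031 CPM in Prkd3-/- line 14. The coefficients of these genes thus rest in part on counts near the floor of detection. Within the set, Acta2 went most closely with Myl9 (0.90) and Tpm1 (0.89) and least with Myocd (0.11), and Actg2 went with Lmod1 (0.85) and Myh11 (0.71) but not with Cnn1 (-0.25). These coefficients describe libraries that share clones, states and count tables, and are given without a test.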

How the data were processed

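The 10 genes and the 7 other gene lists and 6 marker lists were chosen with earlier results of these data known. The authors prepared poly-A libraries and, per their methods and processing notes, mapped read pairs to mm10 with STAR 2.7.10a, used Samtools 1.18, and counted pairs on Ensembl release 102 genes (GRCm38) with featureCounts of Subread 2.0.6, without strand and with shared pairs given to each overlapping gene according to the header of the WT table. The table of the Prkd3-/- libraries holds no such header, and its genes and lengths are the same. The authors deposited raw counts per gene in a table for each genotype, and no normalized values were used.

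From the deposited counts, CPM were computed with TMM factors over all 13 libraries and RPKM with the summed exon length. The genotypes were fitted separately with edgeR 4.0.16 in R 4.3.3 (filter on low counts, robust quasi-likelihood test, Benjamini-Hochberg adjustment over all tested genes), and a call needed an adjusted p below 0.01 with |Log2FC| of 1 or more, the study's limits. The interaction was fitted over 13 libraries with a limit of 0.05. The standard error is the Log2FC divided by the square root of F. All 10 genes passed the filter in each fit. DESeq2 1.42.0, the authors' tool, and limma 3.58.1 were alternatives, with other normalizations, filters, the replicate block, the joint fit, lines 13 and 13a summed and each library left out. Fits were tested on simulated data.

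Genes named are the 10, Prkd3, in each list those past the thresholds and up to 4 with the largest |Log2FC| in either genotype (with at least 1 CPM in a group mean), and the 5 most like Acta2 or the mean of the 10. A gene that this rule names is not reported here. Acta1, Myod1, Myog and Pax7, Tek, Pdgfrb, Srf, Mrtfa and Mrtfb were named after their values were seen. Counting floors cover counting error only, since copies made by PCR are not independent molecules. The labels do not say how cultures were split, so p-values measure the spread between these libraries. Pairing by clone number comes from the sample names, also for line 13a and clone 13. The correlation of the deviations of same-numbered libraries from their group means was -0.04 to 0.02 in WT and -0.28 to 0.15 in Prkd3-/- cells. Line 13a had -0.282 with pMEF 13 and 0.33 with pMEF 14, and line 13 had 0.145 with pMEF 13 and 0.29 with pMEF 15. The microarray data that the study compared were not analysed here.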

Additional observations from a re-analysis of the deposited data

Results flagged for a closer look

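Among the Prkd3-/- iMEF lines, Myocd had 1.04 CPM in line 15, far above the 0.0938 to 0.134 CPM of lines 14, 13a and 13. The gap to the nearest line was 0.958 of the whole range of the group, which marks line 15 as a sample far from the others. Chance marks about 1 in 20 groups in this way, and the 10 genes were examined in these 4 lines, the other groups of 3 being too small. Line 15 also had the highest Actg2 (614.6 CPM), Myh11 (5.98 CPM), Lmod1 (108.7 CPM) and Acta2 (4231 CPM) of the Prkd3-/- lines. With Myocd it was thus highest for 5 of the 10 genes, against 19.9% of tested genes. It was the lowest of these lines for 1 gene, Tagln, against 19.6% of tested genes. Without line 15 the Log2FC of Myocd in Prkd3-/- cells was -3.98, against -2.42 with it.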

How the results depend on the processing

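Of 506 values of single contractile genes under the alternatives, 473 kept their direction and their side of the thresholds, 5 came to pass them and 28 changed sign. In WT cells DESeq2 called 2 of the 10 genes (Myh11 and Myocd), an adjusted p-value under 0.05 called 1 (Myocd), and leaving out each library gave 0 to 2, with 2 without line 5. Over all genes the WT count of 361 became 1361 with DESeq2, 157 with at least 10 counts in every library, 184 with limma, 0 with all 13 libraries fitted jointly, 1045 at an adjusted p-value under 0.05 and 48 to 743 with libraries left out. With the clone number as a replicate block it became 0 (2784 genes at an unadjusted p under 0.05), and the block changed no other count of calls. In Prkd3-/- cells DESeq2 called 190 genes and 1 of the 10 (Tpm2), the joint fit called 1 gene, and leaving out libraries 0 to 0. For the difference between genotypes DESeq2 called 37 genes and leaving out libraries 0 to 2, with 2 without Prkd3-/- line 14. The causes were not tested.

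Tagln in WT cells was -0.01 with limma and -0.02 with the block, and Cnn1 -0.35 and -0.41. Actg2 in Prkd3-/- cells was 0.00 with library size alone, -1.07 with limma and -0.11 with the block, and the difference of Myocd was 0.00 with library size alone and 0.11 with lines 13 and 13a summed. With libraries left out, the WT Log2FC ran from -0.27 to 0.87 for Acta2, -0.20 to 0.96 for Actg2, -0.61 to 0.58 for Tagln, -1.27 to 0.83 for Cnn1, -0.27 to 0.65 for Myl9, -0.23 to 0.80 for Tpm1 and -0.26 to 0.57 for Tpm2. In Prkd3-/- cells Actg2 ran from -1.68 to 1.62, and the difference from -2.27 to 1.03 for Actg2, -1.59 to 0.53 for Cnn1, -1.18 to 0.02 for Tagln and -1.72 to 0.21 for Myocd. Myh11 stayed between -2.67 and -1.88 in WT and between -4.42 and -2.74 in Prkd3-/- cells. With at least 10 counts in every library, Myh11 and Myocd left the Prkd3-/- fit and gave no value. Depth limits Myocd in the lines, where it had 6 to 77 counts.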
